A study of Mus musculus with 12 samples.

Results

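The interferon response was followed through 38 listed genes, chosen by name as type I and type II interferon response genes, in B16-F10, an established line of mouse melanoma cells. Of these, 36 have a probe set with 1 symbol on the array, and all 36 passed the filter on dim genes, so they were tested among 10916 of 18193 measured genes. Isg15 and Ifi44 were not analysed here, and Rigi carries its older symbol Ddx58 on the platform. For each gene the brightest probe set was taken, and levels are given as log2(intensity + 16) after quantile normalization, a scale that understates the change of dim genes.

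The cells were transfected with 1 of 3 plasmids and compared 24 h later, with 4 arrays per plasmid, replicate numbers 1 to 4 in each. The first group received the empty vector pMES, the second pMES with chicken FoxD3, a forkhead factor active in the early neural crest, and the third FoxD3-VP16, in which an activation domain of the viral protein VP16 stands in for the C-terminal repression domain. All groups were transfected and sorted for the EGFP that each vector encodes, and no untransfected cells were among the samples used here. The response to the transfection itself was therefore not measured, and the values below compare transfected cells with each other. Whether replicates came from separate cultures is not stated in the labels. The p-values therefore cover only the spread among these samples, possibly a technical one, and precision is limited by the 12 arrays.

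The cells carried the identity their label gives. All 9 melanocyte markers were measured and tested, and their mean log2 level was 13.95 to 14.41 on the 12 arrays. Of 11 leukocyte markers measured, 6 fell below the filter on dim genes, among them the common leukocyte antigen Ptprc, and the list's mean level was 5.19 to 5.75. Arrays of the same number deviated together, and those numbered 1 stood apart before any gene is considered. Their hybridization controls, labelled RNAs spiked into the hybridization, averaged 14.4 on the log2 scale, against 12.8, 11.6 and 11.6 for the numbers 2, 3 and 4. The log2 difference between the 3' and 5' probe sets of Gapdh, a sign of RNA quality, was 0.66 on the arrays numbered 1, and -0.01, -0.17 and -0.18 on the others. The labels do not say what a number stands for.

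Cells detect foreign nucleic acid with cytosolic sensors, among them the RNA helicases Rigi and Ifih1 and the DNA sensor cGAS. Sensing leads through the kinase Tbk1 and the factors Irf3 and Irf7 to the secretion of type I interferon, which binds its receptor on the same and on neighbouring cells. The receptor's JAK kinases then activate Stat2, which enters the nucleus with Irf9 and binds the interferon-stimulated response element (ISRE) of genes that block viral replication. Type II interferon acts through another element, GAS. Introduced plasmid DNA is a known trigger of this system.

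The clearest pattern in these genes lay between replicate numbers and not between plasmids. In an additive model of vector and number, an F test over the 4 numbers called 28 of the 36 genes at an adjusted p under 0.05 (limma, Benjamini-Hochberg over 10916 genes), where 53.6% of all tested genes were called. What set the interferon genes apart from that background was the direction. On the arrays numbered 2, 29 of the 36 genes were lower than the mean of the arrays numbered 1, 3 and 4 and none was higher, against 13.7% lower and 15.1% higher among all tested genes. The median difference was -1.0 on the log2 scale for the 36 genes and 0.03 for all genes, and 35 of the 36 lay below 0. This contrast was chosen after the values had been seen, and the falls of single genes given below refer to it. The contrast in the design, number 2 against the mean of 3 and 4, called 26 genes lower and none higher, against 9.3% and 10% of all genes. Oas1a (-0.42, adjusted p = 0.108), Zbp1 (-1.15, adjusted p = 0.0634) and Lgals3bp (-0.19, adjusted p = 0.11) passed the first contrast but not the one in the design. In bulk RNA, a lower share of responding cells and less RNA per cell cannot be told apart.

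**Figure D1:**
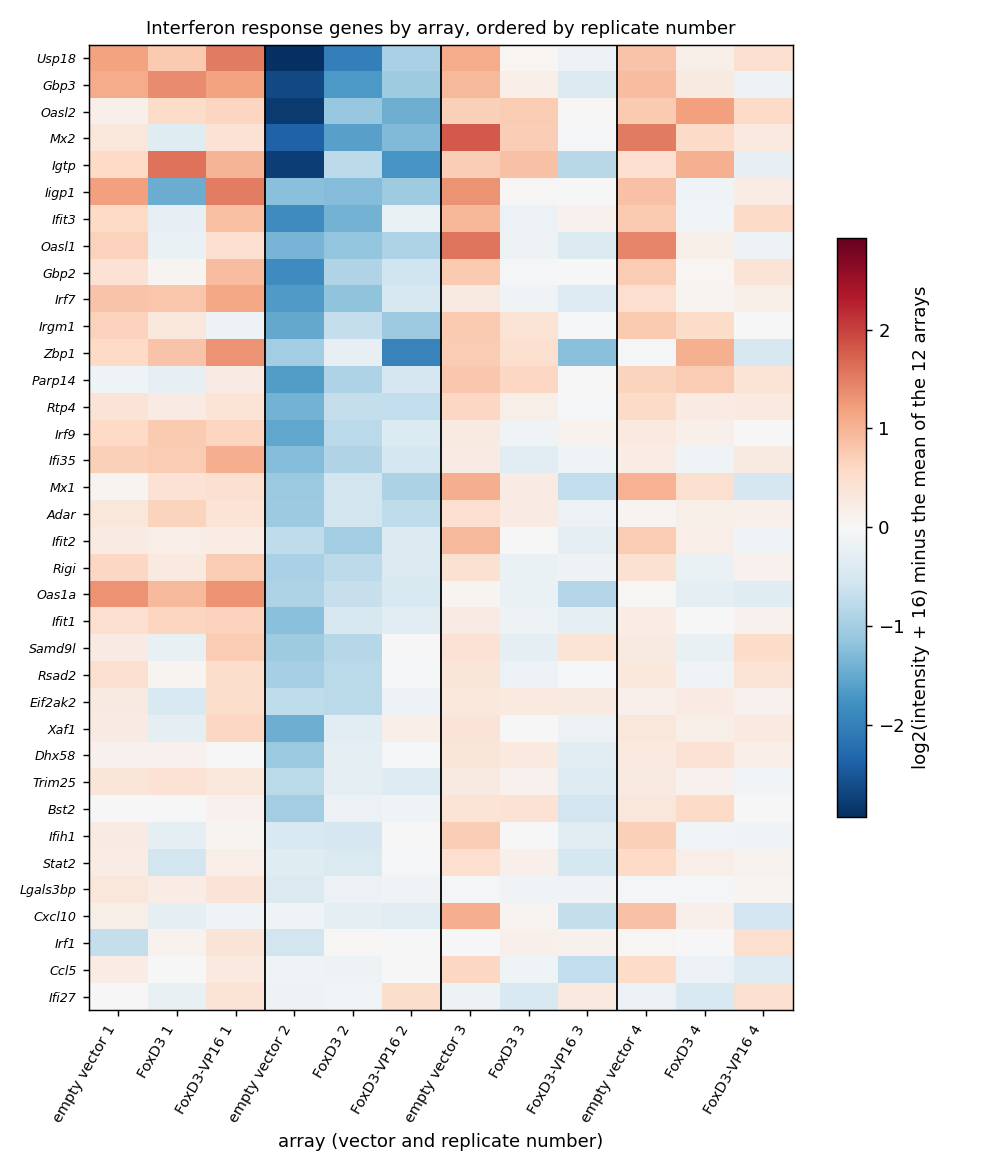
Level of each of the 36 genes on each of the 12 arrays as log2(intensity + 16) minus the gene's own mean over the 12 arrays, with arrays grouped by replicate number and genes ordered by the difference of number 2. The block of arrays numbered 2 is the lowest for most genes, and empty vector 2 is the lowest of the 12 arrays for 26 of them.

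The fall was seen in every vector but was not of one size. Each vector has 1 array numbered 2, so the difference in size between vectors was not tested. Expressed as the median deviation of the 36 genes from their own means, empty vector 2 stood at -1.10, FoxD3 2 at -0.73 and FoxD3-VP16 2 at -0.41. The other empty-vector arrays stood at 0.35, 0.54 and 0.50, the other FoxD3 arrays at 0.17, 0.04 and 0.16, and the other FoxD3-VP16 arrays at 0.50, -0.16 and 0.13. Number 2 was the lowest of the 4 arrays in every vector for 23 of the 36 genes, against 9.01% of all tested genes. For 16 genes all 3 arrays numbered 2 lay below the other 9, against 3.18% of all tested genes. Empty vector 2 alone was the lowest of the 12 arrays for 26 genes, against 6.82%. The arrays numbered 2 lay between those numbered 1 and those numbered 3 and 4 in hybridization controls and in the Gapdh difference. Their controls read 12.69 to 12.89, against 11.54 to 11.73 on number 3 and 11.53 to 11.59 on number 4. Their Gapdh difference was -0.06 to 0.04, against -0.22 to -0.14 on number 3 and -0.25 to -0.11 on number 4. The part of these measures in the result was not tested. Among markers of other cells tested on number 2, 0 of 5 leukocyte genes, 1 of 4 fibroblast genes (Col1a1, -1.15) and the 1 endothelial gene tested (Vwf, -1.34) passed, both lower. Of all tested genes, 13.7% were lower and 15.1% higher. The mean level of the 11 leukocyte markers was 5.49 to 5.72 on the arrays numbered 2 and 5.19 to 5.75 on the others.

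The replicate number accounted for a median of 68.1% of the variance of the 36 genes, against 49% over all tested genes. The vector accounted for a median of 10%, against 22.2%. The arrays numbered 1 differed in the other direction. There, 17 of the 36 genes were higher than the mean of the numbers 2 to 4 and none was lower, against 24.9% higher and 30.1% lower among all genes. This contrast holds the low arrays numbered 2 in its reference. The numbers 3 and 4 differed by -0.35 to 0.13 over the 36 genes, with a median of -0.10. Between them 0 of the 10916 tested genes were called lower and 0 higher. The fits with the replicate number still count them as separate numbers.

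**Figure D2:**
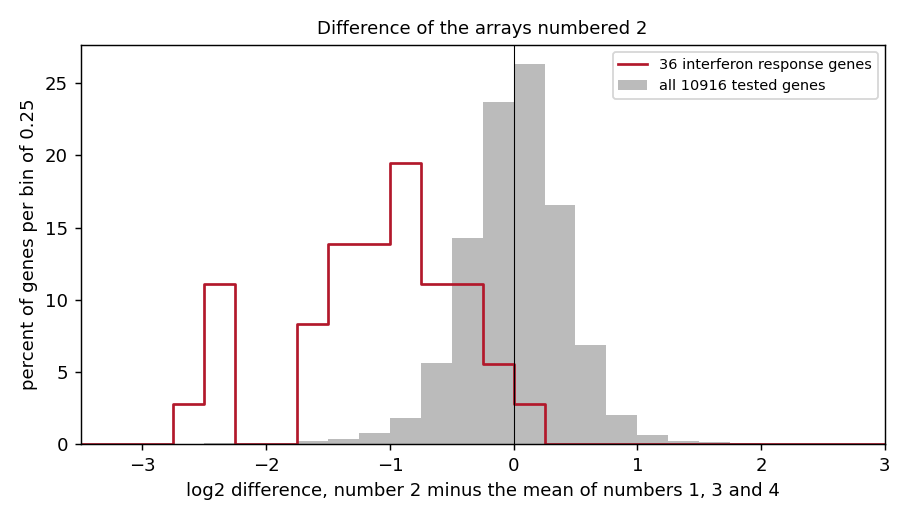
Distribution of the log2 difference between the arrays numbered 2 and the mean of those numbered 1, 3 and 4, in percent of genes per bin of 0.25, for the 36 interferon response genes (red line) and all 10916 tested genes (grey). The interferon genes lie almost wholly below 0, with a median of -1.0, while all genes centre on 0.03.

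Regulators of the response fell on number 2 in 4 of 4 cases. Usp18, the protease that removes Isg15 from proteins and also dampens the type I receptor, showed the largest fall of all members. Its level was 12.87, 8.77, 12.78 and 12.52 on the empty-vector arrays 1 to 4, 12.47, 9.69, 11.75 and 11.87 on the FoxD3 arrays and 13.21, 10.75, 11.54 and 12.16 on the FoxD3-VP16 arrays. Every array numbered 2 lay below all arrays with another number. The difference was -2.62 (SE 0.32, adjusted p = 8.93e-05), a 6.13-fold lower level. Adar, which edits adenosines in double-stranded RNA, read 11.41, 10.01, 11.56 and 11.17 with the empty vector, 11.74, 10.55, 11.32 and 11.25 with FoxD3 and 11.47, 10.34, 10.91 and 11.23 with FoxD3-VP16. Its number 2 was again the lowest array of each vector and the difference was -1.04 (SE 0.13, adjusted p = 8.89e-05). Parp14, an ADP-ribosyltransferase, and Trim25, a ubiquitin ligase that acts on Rigi, fell by 1.35 and 0.63.

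The interferon-inducible GTPases, which attack the vacuoles of intracellular pathogens, fell in 5 of 5 cases, with differences from -2.40 to -1.45. Gbp3, a guanylate-binding protein, read 11.42, 7.68, 11.28 and 11.24 with the empty vector, 11.70, 8.63, 10.52 and 10.60 with FoxD3 and 11.52, 9.28, 9.89 and 10.17 with FoxD3-VP16. Its arrays numbered 2 lay below the other 9 without overlap, by 5.26-fold on average (adjusted p = 0.000174). Igtp, an immunity-related GTPase, read 11.41, 8.07, 11.55 and 11.33 with the empty vector, 12.43, 10.08, 11.68 and 11.88 with FoxD3 and 11.84, 9.10, 10.03 and 10.60 with FoxD3-VP16. The lowest array of each vector was number 2, but FoxD3-VP16 3, at 10.02, lay just below FoxD3 2, at 10.08, so the numbers overlapped across vectors. The difference was -2.34 (SE 0.28, adjusted p = 8.28e-05). Irgm1, which regulates the other GTPases of its family, read 11.84, 9.67, 11.93 and 11.93 with the empty vector, 11.50, 10.46, 11.56 and 11.71 with FoxD3 and 11.03, 10.10, 11.11 and 11.18 with FoxD3-VP16. All 3 arrays numbered 2 lay below the other 9, and the difference was -1.45 (SE 0.17, adjusted p = 6.26e-05). Gbp2 and Iigp1 differed by -1.47 and -1.57, and Iigp1 was also low on FoxD3 1, at 6.01.

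Of the 15 antiviral effectors, 13 fell on number 2, with a median difference of -0.96 over the group. The 2 that did not pass were Xaf1 (-0.69, adjusted p = 0.0542), a proapoptotic factor, and Ifi27 (0.13, adjusted p = 0.196), a small interferon-inducible protein and the single member above 0. Oasl2, of the family of 2'-5'-oligoadenylate synthetases that respond to double-stranded RNA, read 9.92, 6.97, 10.48 and 10.54 with the empty vector, 10.32, 8.66, 10.52 and 10.96 with FoxD3 and 10.41, 8.35, 9.80 and 10.34 with FoxD3-VP16. No array numbered 2 reached the others, and the difference was -2.37 (SE 0.24, adjusted p = 2.43e-05), or 5.19-fold. Mx2, a dynamin-like GTPase that blocks viruses, read 9.95, 7.24, 11.41 and 11.12 with the empty vector, 9.24, 8.01, 10.33 and 10.17 with FoxD3 and 10.02, 8.30, 9.58 and 9.88 with FoxD3-VP16. Its difference was -2.34 (SE 0.32, adjusted p = 0.000245), and its arrays numbered 2 again lay apart from the rest.

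Among the Ifit proteins, which bind viral RNA, Ifit3 read 13.34, 10.91, 13.73 and 13.51 with the empty vector, 12.51, 11.36, 12.59 and 12.68 with FoxD3 and 13.63, 12.55, 12.88 and 13.32 with FoxD3-VP16. The value of FoxD3-VP16 2 lay within the range of the FoxD3 arrays with other numbers. The fall of Ifit3 (-1.53, adjusted p = 0.000731) was deepest on the empty-vector array, a single array. Ifit1 read 13.95, 12.24, 13.71 and 13.68 with the empty vector, 14.08, 13.0, 13.31 and 13.47 with FoxD3 and 14.14, 13.14, 13.20 and 13.59 with FoxD3-VP16, and differed by -0.89 (adjusted p = 0.000951). Its 3 arrays numbered 2 lay below the other 9. Ifit2 differed by -0.96. Rsad2, the radical enzyme viperin, read 14.71, 13.28, 14.62 and 14.57 with the empty vector, 14.33, 13.47, 14.08 and 14.15 with FoxD3 and 14.76, 14.21, 14.21 and 14.66 with FoxD3-VP16. Number 2 was lowest in each vector (-0.80, adjusted p = 0.000765), though FoxD3-VP16 2 lay above FoxD3 3 and 4.

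Ifi35, a partner of the factor Nmi, had the smallest F-test p of the members (adjusted p = 1.47e-05). It read 13.25, 11.28, 12.80 and 12.77 with the empty vector, 13.29, 11.66, 12.23 and 12.43 with FoxD3 and 13.62, 12.03, 12.42 and 12.82 with FoxD3-VP16. In each vector number 1 was the highest array and number 2 the lowest, and number 2 differed by -1.19 (SE 0.13). Oas1a, a 2'-5'-oligoadenylate synthetase that activates RNase L, differed in shape. It read 12.44, 10.23, 11.22 and 11.18 with the empty vector, 12.09, 10.47, 10.95 and 10.87 with FoxD3 and 12.44, 10.69, 10.28 and 10.79 with FoxD3-VP16. Here the arrays numbered 1 were the ones that stood apart, 1.58 above the mean of the others (adjusted p = 3.88e-06). Number 2 was lowest in only 2 vectors, since FoxD3-VP16 3 was lower still. The remaining effectors that fell were Mx1, Oasl1, the virion tether Bst2, Samd9l and Rtp4, with differences of -1.14, -1.52, -0.59, -0.84 and -1.24.

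The transcription factors divided evenly. Irf7, which amplifies type I interferon production, read 9.79, 7.30, 9.23 and 9.46 with the empty vector, 9.77, 7.79, 8.84 and 9.03 with FoxD3 and 10.08, 8.48, 8.58 and 9.13 with FoxD3-VP16. Irf9, the DNA-binding partner of Stat2, read 10.53, 8.41, 10.19 and 10.22 with the empty vector, 10.71, 9.14, 9.83 and 10.09 with FoxD3 and 10.57, 9.53, 10.04 and 9.95 with FoxD3-VP16. All 3 arrays numbered 2 were below the other 9 for both genes, with differences of -1.47 (adjusted p = 0.000328) and -1.21 (adjusted p = 0.000353). Stat2 (-0.37, adjusted p = 0.209) and Irf1 (-0.22, adjusted p = 0.277), an early factor of the type II response, did not pass. Irf1 was lowest on empty vector 1, at 8.84.

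Sensors fell in 4 of 5 cases. Rigi, a sensor of viral RNA ends, read 12.56, 10.99, 12.40 and 12.40 with the empty vector, 12.22, 11.18, 11.76 and 11.75 with FoxD3 and 12.69, 11.52, 11.80 and 12.08 with FoxD3-VP16. The arrays numbered 2 were the lowest 3 of the 12 (-0.96, adjusted p = 0.000285). Its relative Ifih1, a sensor of long double-stranded RNA, differed by -0.43 and did not pass (adjusted p = 0.0628). Dhx58, the third helicase of the family, differed by -0.64, the RNA-dependent kinase Eif2ak2 by -0.76 and the nucleic acid sensor Zbp1 by -1.43, and these 3 passed. Against the mean of the numbers 3 and 4 alone, Zbp1 did not pass (adjusted p = 0.0634).

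The secreted proteins moved least with number 2. Cxcl10, a chemokine that attracts T cells, read 13.20, 12.90, 14.09 and 13.88 with the empty vector, 12.76, 12.77, 13.11 and 13.17 with FoxD3 and 12.91, 12.72, 12.33 and 12.46 with FoxD3-VP16. Its highest arrays were empty vector 3 and 4 and its lowest FoxD3-VP16 3 and 4, and the difference of number 2 did not pass (-0.30, adjusted p = 0.246). Ccl5, a second chemokine, read 13.15, 12.81, 13.55 and 13.49 with the empty vector, 12.96, 12.79, 12.82 and 12.77 with FoxD3 and 13.23, 12.96, 12.23 and 12.57 with FoxD3-VP16 and had the same order of extremes (-0.12, adjusted p = 0.642). Lgals3bp, a galectin-binding glycoprotein, differed by -0.31 (adjusted p = 0.00848), the smallest difference of any member that passed. Against the mean of the numbers 3 and 4 alone, Lgals3bp did not pass (adjusted p = 0.11).

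**Figure D3:**
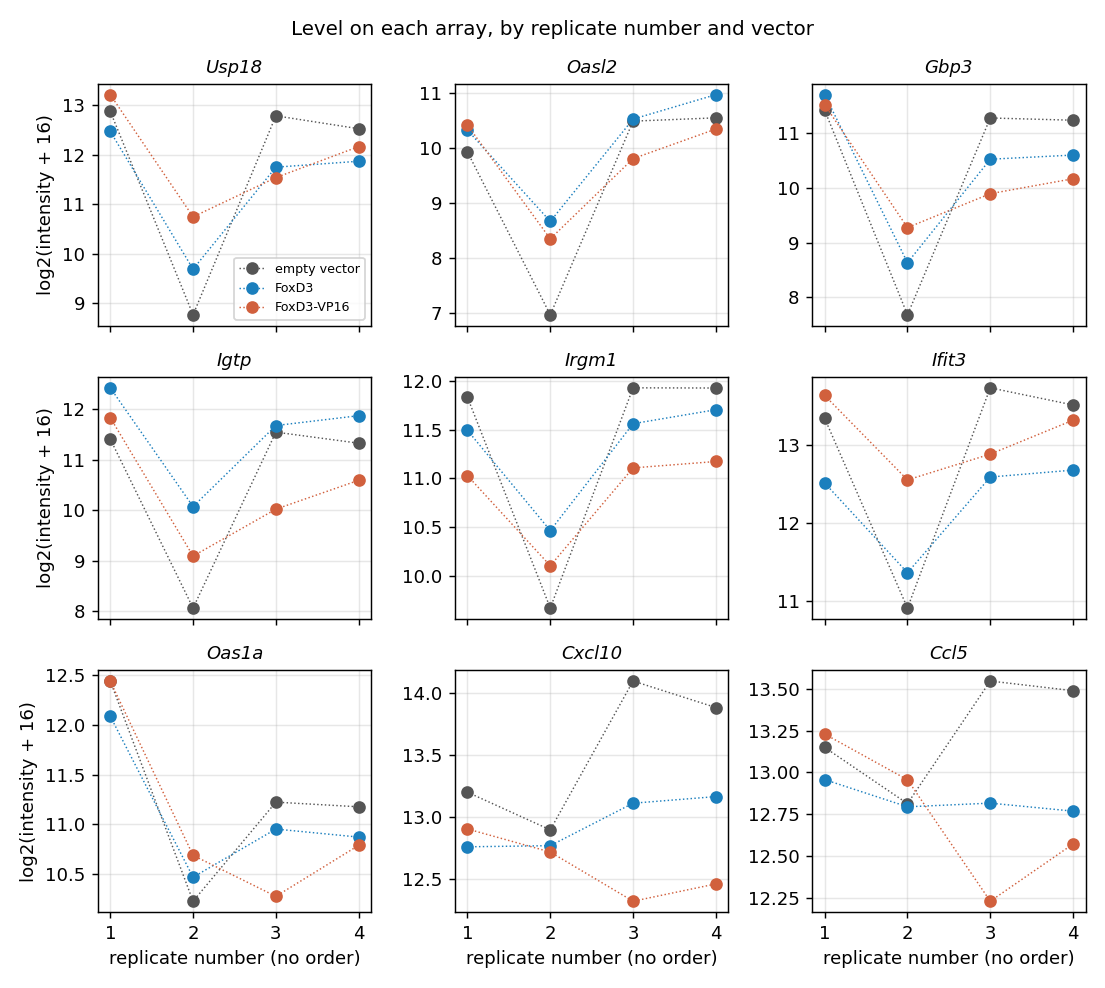
Level of 9 genes on each array, log2(intensity + 16), against the replicate number, coloured by vector; dotted lines join arrays of a vector only to guide the eye, since the numbers have no order. Usp18, Oasl2, Gbp3, Igtp, Irgm1 and Ifit3 dip on number 2 in every vector, Oas1a peaks on number 1, and Cxcl10 and Ccl5 spread by vector on numbers 3 and 4.

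A second probe set was available for 15 of the 36 genes. In 14 of these, every probe set was lower on number 2 than on the mean of the others, and the exception was Ifi27. This counts signs only, the probe sets of a gene share the arrays, and the share over all genes was not computed. Interferon-stimulated genes outside the 38, from a list of 50 that was drawn up with earlier results known, also fell on number 2 in most cases. Of 36 tested, 25 were lower on number 2 and 0 higher, against 13.7% lower and 15.1% higher among all tested genes. Their median was -0.93. The largest falls were those of the GTPase Irgm2 (-2.13), Trim30a (-2.13) and the nucleotide kinase Cmpk2 (-1.75). In the lists of upstream genes some were lower and some higher, and the same 13.7% and 15.1% of all tested genes apply. Of 20 receptor and JAK-STAT genes tested, 1 was lower on number 2 (Pias1, -0.34) and 2 were higher, the receptor chains Ifnar2 (0.66) and Il10rb (0.43). Of 22 sensing genes tested, 6 were lower, led by the endosomal RNA receptor Tlr3 (-1.47), the NF-kappa-B inhibitor Nfkbia (-1.20) and the DNA sensor Cgas (-0.88), and 2 were higher, the adaptor Sting1 (0.70) and Irf3 (0.35).

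The promoters of several of these genes carry the elements through which interferon acts. RefSeq windows on GRCm38.p6 were matched by symbol for 26 of the 36 genes, and the 250 bases before each start were searched on both strands. The ISRE letters GAAANNGAAA occurred in 11 of the 26 genes, or 42.3%, against 3.46% of 27025 genes with a window and 2.98% of their 32851 windows. The GAS letters TTCNNNGAA occurred in 6 of the 26, or 23.1%, against 8.13% of genes and 7.02% of windows. Matches of the 2 motifs may overlap, as they do in Bst2. A match describes these letters in this window and is neither a site nor a cause. The 170 bases before the start are shown for 6 genes, picked because they fell on number 2 and also hold an ISRE match there. Each is given 5' to 3' on the gene's strand with the ISRE matches in capitals, as letters of the motif or of its reverse complement. They stretch over chr3:142559874-142560043 (plus strand) for Gbp3, chr11:58199386-58199555 (plus) for Igtp, chr11:48871421-48871590 (minus) for Irgm1, chr12:26456453-26456622 (minus) for Rsad2, chr19:34583359-34583528 (plus) for Ifit3 and chr19:34640719-34640888 (plus) for Ifit1.
Gbp3: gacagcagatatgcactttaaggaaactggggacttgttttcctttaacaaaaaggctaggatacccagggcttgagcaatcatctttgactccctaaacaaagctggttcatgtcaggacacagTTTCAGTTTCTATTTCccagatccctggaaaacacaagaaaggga
Igtp: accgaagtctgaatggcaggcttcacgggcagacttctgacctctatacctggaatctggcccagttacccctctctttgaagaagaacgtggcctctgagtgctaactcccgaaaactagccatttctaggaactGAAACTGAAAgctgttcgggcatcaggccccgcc
Irgm1: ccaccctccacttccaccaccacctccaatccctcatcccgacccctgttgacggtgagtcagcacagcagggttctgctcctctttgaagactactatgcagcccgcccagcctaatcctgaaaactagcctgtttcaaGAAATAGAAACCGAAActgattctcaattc
Rsad2: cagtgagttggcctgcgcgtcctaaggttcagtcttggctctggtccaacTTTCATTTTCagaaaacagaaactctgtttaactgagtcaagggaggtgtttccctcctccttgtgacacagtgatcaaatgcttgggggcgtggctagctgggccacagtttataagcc
Ifit3: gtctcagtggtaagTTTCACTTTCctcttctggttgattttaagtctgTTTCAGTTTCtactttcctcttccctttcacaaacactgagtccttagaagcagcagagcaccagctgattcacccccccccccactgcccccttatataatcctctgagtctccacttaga
Ifit1: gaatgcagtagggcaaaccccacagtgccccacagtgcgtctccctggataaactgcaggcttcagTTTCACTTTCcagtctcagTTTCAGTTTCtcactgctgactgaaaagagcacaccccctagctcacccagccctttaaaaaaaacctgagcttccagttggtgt
In Gbp3 and Irgm1 2 matches share letters and form 1 run, Ifit3 and Ifit1 hold 2 separate matches, and Igtp and Rsad2 hold 1. In Igtp and Irgm1 the match begins 34 and 30 bases before the start, and in Rsad2 and Ifit3 it begins 120 and 156 bases before it. Cxcl10 and Stat2, which did not pass on number 2, also hold a match, farther from the start. Other genes fell on number 2 without an ISRE match in the window, among them Oasl2 (-2.37), Oasl1 (-1.52), Irf7 (-1.47), Irf9 (-1.21) and Ifi35 (-1.19).

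FoxD3 was compared with the empty vector to ask which of the 36 genes differ when the factor is present. None passed in either direction (lowest adjusted p = 0.255, limma over 12 arrays without a block), where 2.89% of all tested genes were called higher and 1.12% lower. At an unadjusted p under 0.05 there were 2 members, 5.56%, against 16.1% of all genes. The median difference was -0.12, with 13 genes above 0 and 23 below, and it was 0.00 over all genes. The spread of these genes between numbers entered the error: their median standard error was 0.38, against 0.24 for all genes, and fell to 0.19 with the replicate number as a block.

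With that block 4 members passed, 1 higher and 3 lower, against 11.8% of all genes higher and 9.21% lower. Igtp was higher with FoxD3 by 0.93 (SE without block 0.78; adjusted p = 0.657 without and 0.0412 with the block). The array pairs of numbers 1 to 4 differed by 1.02, 2.01, 0.13 and 0.55, all above 0, but without empty vector 2 the difference of Igtp was 0.08. Iigp1, which showed the largest difference of any member, read 8.66, 6.24, 8.78 and 8.32 with the empty vector, 6.01, 6.21, 7.50 and 7.34 with FoxD3 and 8.98, 6.42, 7.48 and 7.70 with FoxD3-VP16. It was lower with FoxD3 by 1.24 (adjusted p = 0.358 without and 0.049 with the block), and the pairs differed by -2.66, -0.03, -1.28 and -0.98, so that the pair numbered 2 hardly differed. The groups overlapped. Oasl1, an oligoadenylate synthetase-like protein, read 10.37, 8.34, 11.27 and 11.13 with the empty vector, 9.49, 8.54, 9.55 and 9.86 with FoxD3 and 10.19, 8.80, 9.26 and 9.55 with FoxD3-VP16. Its pairs differed by -0.87, 0.20, -1.72 and -1.27, that is below 0 in 3 of 4 numbers (mean -0.92; adjusted p = 0.463 without and 0.0498 with the block). Ifih1 read 12.57, 11.88, 13.05 and 13.02 with the empty vector, 12.07, 11.84, 12.31 and 12.24 with FoxD3 and 12.41, 12.31, 12.02 and 12.22 with FoxD3-VP16. It was lower with FoxD3 in all 4 pairs, by a mean of -0.52 (adjusted p = 0.276 without and 0.0457 with the block). Leaving out empty vector 2 alone gave 3 calls without the block, all lower: Ifih1 (-0.77, adjusted p = 0.0212), Oasl1 (-1.56, adjusted p = 0.036) and Ifit3 (-1.24, adjusted p = 0.0497).

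FoxD3-VP16 was compared with the empty vector next. No member passed (lowest adjusted p = 0.0648), where 0.522% of all genes were called higher and 0.0733% lower. At an unadjusted p under 0.05 there were 4 members, 11.1%, against 10.3% of all genes. The median difference was -0.05, with 17 genes above 0 and 19 below. With the block 3 members passed as higher and 1 as lower, against 5.73% and 5.41% of all genes. Ifi27 had been nearest to the threshold. It read 12.54, 12.41, 12.41 and 12.38 with the empty vector, 12.34, 12.49, 12.12 and 12.11 with FoxD3 and 12.95, 13.08, 12.85 and 13.03 with FoxD3-VP16. The FoxD3-VP16 arrays all lay above the empty-vector arrays, by 0.54 on average (SE 0.12; adjusted p = 0.0648 without and 0.00121 with the block). Irf1 read 8.84, 9.01, 9.54 and 9.58 with the empty vector, 9.65, 9.57, 9.68 and 9.54 with FoxD3 and 9.92, 9.56, 9.67 and 10.02 with FoxD3-VP16. Its 4 pairs differed by 1.08, 0.55, 0.13 and 0.44 (mean 0.55; adjusted p = 0.296 without and 0.0387 with the block), and the groups overlapped at 9.56 and 9.57.

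Samd9l, a cytoplasmic restriction factor, read 12.62, 11.33, 12.80 and 12.65 with the empty vector, 12.16, 11.55, 12.11 and 12.15 with FoxD3 and 13.12, 12.37, 12.78 and 12.93 with FoxD3-VP16. Against the empty vector the pairs of Samd9l differed by 0.51, 1.04, -0.01 and 0.28, a difference carried mostly by number 2 (mean 0.45; adjusted p = 0.697 without and 0.0439 with the block), and it was 0.11 when empty vector 2 was left out. Cxcl10 was the member that was lower with the block. Its pairs differed by -0.30, -0.18, -1.77 and -1.42, all below 0, with a mean of -0.91 (SE 0.24; adjusted p = 0.144 without and 0.0128 with the block). Leaving out empty vector 2 gave 1 call without the block, that of Cxcl10 (-1.12, adjusted p = 0.0428). Beside Cxcl10, Oasl1 had the largest difference (-0.83) but did not pass with the block either (adjusted p = 0.103).

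FoxD3-VP16 was last compared with FoxD3, from which it differs in the exchanged domain. Ifi27 rose by 0.71 (SE 0.12, 1.64-fold; adjusted p = 0.00194) and was the 1 member that passed without a block, where 4.44% of all genes were higher and 5.13% lower. Its mean was 12.98 ± 0.10 (SD, n = 4) with FoxD3-VP16 and 12.26 ± 0.18 (SD, n = 4) with FoxD3, and no array of one group reached the other. Leaving out any 1 of the 12 arrays kept the call of Ifi27, with differences of 0.66 to 0.79. At an unadjusted p under 0.05 there were 2 members, 5.56%, against 23% of all genes. The median difference was 0.07.

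With the block 4 members were higher in FoxD3-VP16 cells than in FoxD3 cells and 1 lower, against 14.6% and 17.5% of all genes. Beside Ifi27, Samd9l was higher by 0.81 with no overlap between the groups (pairs 0.96, 0.81, 0.68 and 0.78; adjusted p = 0.107 without and 0.000501 with the block). Leaving out empty vector 2, which serves this comparison only through the shared error, brought Samd9l past the threshold without the block (adjusted p = 0.0154). Ifit3 was higher by 0.81 (pairs 1.12, 1.19, 0.30 and 0.64; adjusted p = 0.41 without and 0.0322 with the block). Rsad2 was higher by 0.45 (pairs 0.43, 0.73, 0.14 and 0.51; adjusted p = 0.408 without and 0.0261 with the block). The groups overlapped for Ifit3 and Rsad2. Igtp was lower in all 4 pairs, by -0.59, -0.98, -1.66 and -1.28, with a mean of -1.13 (adjusted p = 0.444 without and 0.0107 with the block).

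Zbp1, a dim gene, had the second largest difference of FoxD3-VP16 from FoxD3. It read 7.02, 5.43, 7.17 and 6.39 with the empty vector, 7.27, 6.19, 6.89 and 7.47 with FoxD3 and 7.74, 4.47, 5.20 and 5.96 with FoxD3-VP16. The array FoxD3-VP16 1 was the highest of the 12 and FoxD3-VP16 2 the lowest, and the pairs differed by 0.47, -1.72, -1.69 and -1.51. The difference did not pass (mean -1.12; adjusted p = 0.317 without and 0.0508 with the block). Without FoxD3-VP16 1 it was -1.75 and passed (adjusted p = 0.0446). The other probe set of Zbp1, dimmer at a mean of 5.58, differed by only -0.37 over all arrays.

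**Figure D4:**
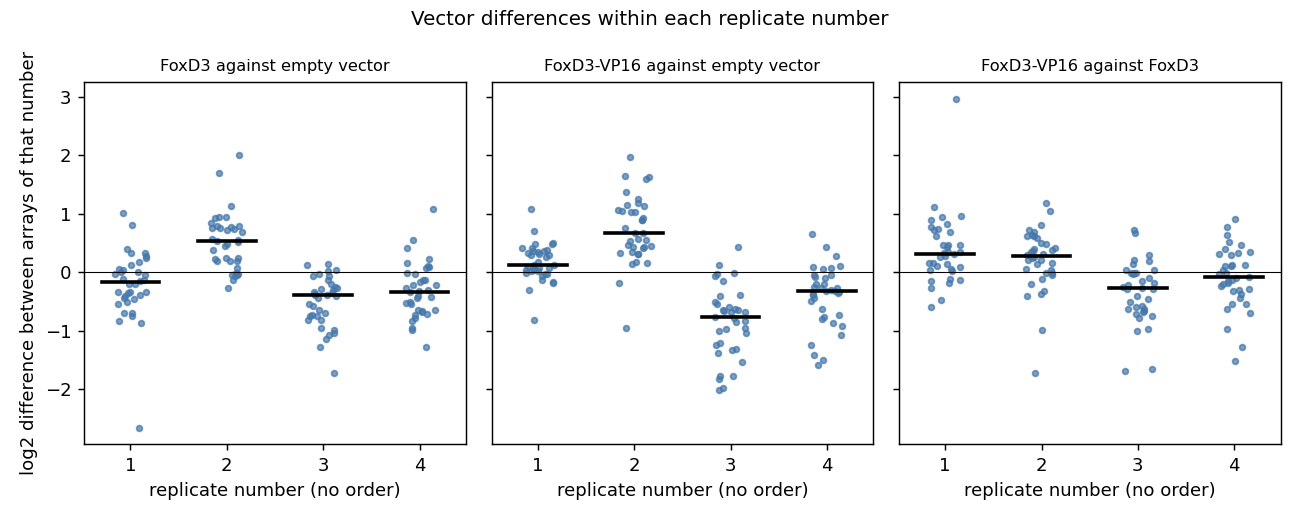
Log2 difference between 2 vectors within each replicate number, 1 point per gene for the 36 genes, with the median as a bar. Against the empty vector the medians are 0.53 and 0.68 on number 2 and -0.40 and -0.77 on number 3, so the sign depends on the number.

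The pairs of arrays with one number did not point the same way. For FoxD3 against the empty vector the median difference of the 36 genes was -0.17, 0.53, -0.40 and -0.33 within the numbers 1 to 4, with 13, 29, 4 and 8 genes above 0. FoxD3-VP16 against the empty vector gave 0.13, 0.68, -0.77 and -0.32, with 27, 34, 2 and 7 genes above 0. For FoxD3-VP16 against FoxD3 the medians were 0.32, 0.28, -0.27 and -0.09, with 29, 26, 8 and 15 genes above 0. The comparisons share arrays, and both contrasts with the empty vector hold empty vector 2, the array on which 26 of the genes were lowest. Within number 2 most genes were thus higher with either transgene, and within numbers 3 and 4 most were lower.

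Leaving out the 3 arrays numbered 2, a choice made after seeing the data, moved the medians to -0.31 for FoxD3 and -0.29 for FoxD3-VP16 against the empty vector. Within number 2, 29 and 34 of the 36 genes had been above 0 in these comparisons. Removing that number therefore lowers most differences by construction, and the counts that follow are no separate test. There were then 29 and 30 of 36 genes below 0, and the median of FoxD3-VP16 against FoxD3 was 0.00, with 18 genes on each side. With the number as a block on these 9 arrays, 12 genes were lower in FoxD3 cells than in empty-vector cells and 0 higher, against 8.2% and 10.2% of all genes. They were Ifit3 (-0.94, adjusted p = 0.00353), Samd9l (-0.55), Rsad2 (-0.45), Ifih1 (-0.68), Oasl1 (-1.29), Rigi (-0.54), Iigp1 (-1.64), Irgm1 (-0.31), Cxcl10 (-0.71), Usp18 (-0.70), Mx2 (-0.91) and Gbp2 (-0.61). For FoxD3-VP16 against the empty vector 8 genes were lower and 1 higher, against 5.53% and 5.41% of all genes. The lower ones were led by Irgm1 (-0.80, adjusted p = 0.00114), Cxcl10 (-1.16, adjusted p = 0.00852) and Ifih1 (-0.67, adjusted p = 0.015), and the higher one was Ifi27. For FoxD3-VP16 against FoxD3, 4 were higher, against 12.4% of all genes, and 2 lower, Igtp and Irgm1, against 14.6%.

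Array quality weights, which count an array less the farther it lies from the fit, put empty vector 2 at 0.31 and the arrays numbered 1 at 0.17 to 0.18. The arrays numbered 3 and 4 weighed 1.89 to 5.51, so the weighted fit rested mostly on them. FoxD3 against the empty vector then had 13 members lower and 0 higher, against 18.6% and 19.8% of all genes. For FoxD3-VP16 against the empty vector 16 were lower and 1 higher, against 16.5% and 15.2%. FoxD3-VP16 against FoxD3 had 6 lower and 2 higher, against 22.3% and 18.5%. In the comparisons with the empty vector, the sign of some members turned as well, without a call in either direction. Leaving out the arrays numbered 2 turned 6 members for FoxD3 and 11 for FoxD3-VP16, and the weights turned 7 and 13. For FoxD3-VP16 these included Usp18, at 0.18 over all arrays and -0.42 without number 2.

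The other genes of the pathway, from 4 lists of 120 genes of which 80 were tested, included some that differed between vectors without the block. Of these, 5 passed for FoxD3 against the empty vector, 4 higher and 1 lower, against 2.89% and 1.12% of all genes. Socs3, a feedback inhibitor of JAK kinases, read 7.24, 7.31, 7.34 and 6.33 with the empty vector, 10.04, 8.85, 9.02 and 9.28 with FoxD3 and 7.06, 8.20, 7.12 and 8.04 with FoxD3-VP16. It rose with FoxD3 by 2.25 (SE 0.35, adjusted p = 0.00295), and the groups did not overlap. Ifi30, a lysosomal thiol reductase induced by type II interferon, read 10.55, 10.72, 10.72 and 10.56 with the empty vector, 12.45, 11.91, 11.91 and 11.94 with FoxD3 and 10.37, 10.33, 10.75 and 10.64 with FoxD3-VP16. It rose by 1.42 (SE 0.16, adjusted p = 0.000459), with all FoxD3 arrays above the other 8. Isg20, an exonuclease that degrades viral RNA, read 8.01, 8.20, 9.51 and 9.56 with the empty vector, 10.19, 10.0, 10.38 and 10.43 with FoxD3 and 8.40, 8.79, 9.0 and 8.84 with FoxD3-VP16. It rose by 1.43 (SE 0.33, adjusted p = 0.0272), again without overlap, although empty vector 1 and 2 were lower than 3 and 4; its adjusted p lay between 0.0161 and 0.0897 when single arrays were left out, and the call ended in 7 of 25 alternatives.

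Jak2, a kinase of the type II receptor, read 9.55, 9.37, 9.38 and 9.28 with the empty vector, 8.68, 8.82, 8.53 and 8.72 with FoxD3 and 10.13, 9.77, 9.61 and 9.67 with FoxD3-VP16. It fell with FoxD3 by 0.71 (adjusted p = 0.0229; 0.0107 to 0.0832 without single arrays, with the call lost in 6 of 25 alternatives) and was 1.11 higher with FoxD3-VP16 than with FoxD3 (adjusted p = 0.000718). The FoxD3 arrays lay below all others. Ptpn1, a phosphatase that acts on JAK kinases, rose with FoxD3 by 0.49 (adjusted p = 0.044; 0.0351 to 0.147 without single arrays). That call was lost in 16 of 25 alternatives, among them the values as deposited, no filter on dim genes, a fit without a trend and the 2 groups alone. With the block 10 genes of the lists were higher and 6 lower, shares of the 80 close to the 11.8% and 9.21% of all genes. For FoxD3-VP16 against the empty vector none of the 80 passed without the block and 3 passed as higher with it, where 5.73% of all genes did. They were the receptor kinase Tyk2 (0.52, adjusted p = 0.0337), the nucleotide hydrolase Samhd1 (0.42, adjusted p = 0.0495) and the tudor protein Tdrd7 (0.64, adjusted p = 0.01).

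For FoxD3-VP16 against FoxD3, 10 of the 80 passed without the block, 3 higher and 7 lower, against 4.44% and 5.13% of all genes. With the block 13 were higher and 19 lower, against 14.6% and 17.5%. Beside Jak2, the higher ones were Samhd1 (0.77, adjusted p = 0.0175), which removes the nucleotides needed for reverse transcription, and Tdrd7 (0.81, adjusted p = 0.0372). Lower were Socs3 (-1.69, adjusted p = 0.00858), Ifi30 (-1.53, adjusted p = 9.68e-05), Isg20 (-1.50, adjusted p = 0.0114) and Socs2 (-1.41, adjusted p = 0.00708), a second feedback inhibitor. Lower with adjusted p-values just under the threshold were the interferon Ifnz (-1.25, adjusted p = 0.0486), Pias4 (-0.70, adjusted p = 0.0472) and Ptpn1 (-0.44, adjusted p = 0.0395). The calls of these 3, of Tdrd7 and of Samhd1 ended when certain single arrays were left out. Of 25 alternatives, the call was lost in 16 for Pias4, 12 each for Ifnz and Ptpn1, 10 for Tdrd7, 2 for Samhd1 and 1 each for Socs2 and Socs3.

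**Figure D5:**
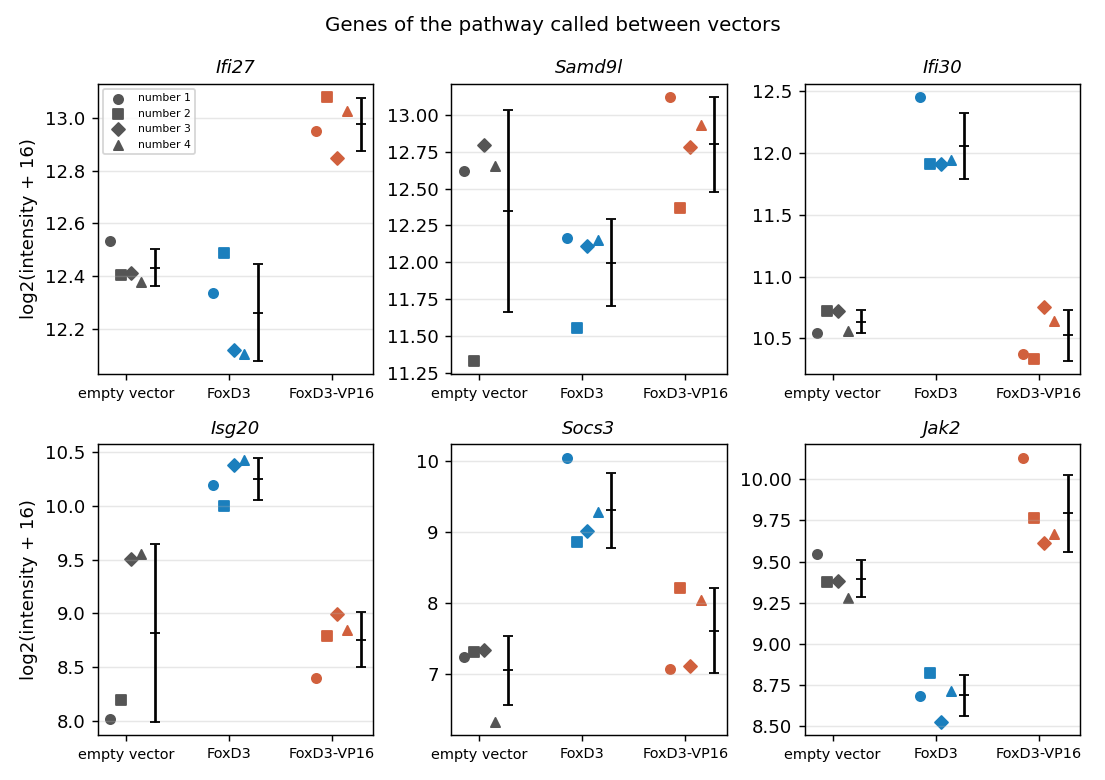
Level of 2 interferon response genes (Ifi27, Samd9l) and 4 other genes of the pathway on each array, log2(intensity + 16), by vector, with 1 marker shape per replicate number and the mean ± SD of the 4 arrays beside the points. Ifi27 is highest with FoxD3-VP16, Ifi30, Isg20 and Socs3 are highest with FoxD3, and Jak2 is lowest with FoxD3.

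Most interferon genes were dim. Of 10 measured, 8 fell below the filter and 2 were tested, Ifnz and Ifnb1, the type I interferon that most cell types make. Ifnb1, named here after its values were seen, read 5.31, 5.78, 8.03 and 7.89 with the empty vector, 5.55, 6.08, 6.77 and 7.02 with FoxD3 and 5.72, 6.09, 5.87 and 5.95 with FoxD3-VP16. Empty vector 3 and 4 were the highest arrays, followed by FoxD3 4 and 3, and the other 8 lay between 5.31 and 6.09. Ifnb1 did not differ between vectors at the threshold (adjusted p = 0.838, 0.722 and 0.735), nor between numbers (F test, adjusted p = 0.0528), and its number 2 was -0.47 from the others (adjusted p = 0.398). The 2 arrays with the highest Ifnb1 were also the 2 highest for Cxcl10, Ccl5, Oasl1, Mx1 and Mx2, genes picked after their values were seen. The share of all tested genes with these 2 arrays highest was not computed. Over the 36 members, empty vector 3 was the highest array for 11 and empty vector 4 for 1, against 1045 and 618 of 10916 tested genes. FoxD3-VP16 1, where Ifnb1 read 5.72, was highest for 13 members, against 1334 of all tested genes.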

How the data were processed

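The authors deposited 1 intensity per probe set and array for 45101 probe sets, for which the submitters' processing notes name MAS5 with no version. From these intensities log2(intensity + 16) was computed and quantile normalized, without 64 control probe sets. The brightest probe set of each gene was kept among the 34945 with 1 symbol, and the lowest 40% of the 18193 genes by mean were left out. The comparisons of vectors were fitted in limma 3.58.1 (R 4.3.3, lmFit, eBayes with a trend) over all 12 arrays without a block, with Benjamini-Hochberg adjustment over 10916 genes and a threshold of 0.05; a second fit held vector and replicate number. The fits were tested on simulated data, and plots used matplotlib 3.10.9.

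Same-numbered arrays deviated together in all 12 pairs (correlation of deviations from group means 0.37 to 0.67, against -0.51 to 0.54 in 36 other pairs), so the numbers were taken to pair the samples; this correlation is the only source of the pairing. The members and the lists were chosen with earlier results of these data known. Genes were named in full where a member was called in a comparison of vectors without or with the block, was among the 6 smallest F-test p-values or the 2 largest differences of a comparison, or was a called gene of the pathway lists (up to 4 per list and comparison). Others named individually were chosen after their values were seen. Alternatives covered the pseudocount, normalization, filter, probe-set rule, trend, weights, block, the groups in the fit and arrays left out.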

Additional observations from a re-analysis of the deposited data

Results flagged for a closer look

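Within each vector, an array was picked out when its gap to the nearest of the 4 arrays, as a share of their range, exceeded Dixon's critical value. This happened in 22 of 108 combinations of gene and vector, and each time the array was low and numbered 2. The critical value is set to pick about 1 in 20 when no array differs. The share over all tested genes was not computed, and the F test over the numbers called 53.6% of them. The 1 in 20 is thus a nominal rate and not a measured background. The genes share these arrays, so the 22 are not independent. The cause was not tested.

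On empty vector 2 there were 16. The largest gaps, each given as the log2 level against the next array of the vector, were those of Usp18 (8.77 against 12.52), Gbp3 (7.68 against 11.24), Igtp (8.07 against 11.33) and Ifit3 (10.91 against 13.34). Gbp2 (8.44 against 10.69), Irgm1 (9.67 against 11.84), Irf9 (8.41 against 10.19), Rtp4 (11.39 against 13.15) and Xaf1 (8.94 against 10.62) followed. The others were Ifit1 at 12.24, Rigi at 10.99, Rsad2 at 13.28, Samd9l at 11.33, Dhx58 at 9.34, Trim25 at 11.25 and Eif2ak2 at 8.15.

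On FoxD3 2 there were 5, with Ifit3 at 11.36 against 12.51, Ifit2 at 10.71 against 11.73, Rtp4 at 12.08 against 12.94, Gbp2 at 9.38 against 10.23 and Samd9l at 11.55 against 12.11. On FoxD3-VP16 2 there was 1, Irgm1, at 10.10 against 11.03.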

How the results depend on the processing

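The pattern by replicate number kept its size: the F test called 28 of 36 genes and 22 to 30 when single arrays were left out, and 29 fell on number 2, or 22 to 31 without single arrays. Under other scalings the median on number 2 stayed between -0.90 and -1.01. The counts between vectors did not. For FoxD3 against the empty vector (0 called) the replicate block gave 4, array quality weights 13, leaving out the arrays numbered 2 gave 1, and the same with the replicate block 12; single arrays left out gave 0 to 3. For FoxD3-VP16 against the empty vector (0 called) the replicate block gave 4, weights 17, leaving out the arrays numbered 1 gave 1, leaving out those numbered 2 gave 1, and the same with the replicate block 9; single arrays gave 0 to 1. For FoxD3-VP16 against FoxD3 (1 called) the replicate block gave 5, weights 8, leaving out the arrays numbered 2 gave 3, the same with the replicate block 6, and fitting the 2 groups alone 2; single arrays gave 1 to 2.

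Among the 80 other pathway genes tested, the replicate block gave 16, 3 and 32 calls in the 3 comparisons, in the order above, in place of 5, 0 and 10. Of all tested genes the block called 11.8% higher and 9.21% lower, 5.73% and 5.41%, and 14.6% and 17.5%. Weights gave 32, 32 and 34 calls among the 80. Of all tested genes they called 19.8% higher and 18.6% lower, 15.2% and 16.5%, and 18.5% and 22.3%. Leaving out the arrays numbered 2 gave 2 for the first, and with the replicate block 15, 4 and 30. That last setting called 10.2% of all tested genes higher and 8.2% lower, 5.41% and 5.53%, and 12.4% and 14.6%. Fitting the 2 groups alone gave 3 for the first. Single arrays left out gave 2 to 5 for the first, 0 to 0 for the second and 6 to 12 for the third. Of the genes whose difference was recomputed under every alternative, none reversed. Among all 36 members the sign of the difference turned without the arrays numbered 2 in 6, 11 and 4 genes in the 3 comparisons, and with weights in 7, 13 and 7; none of these was called after the turn. Leaving out the arrays numbered 2, and every alternative for the pathway genes beyond scaling and the block, was chosen after seeing the data. The replicate numbers may stand for anything the arrays of a number share, and the cause of the differences between settings was not tested.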

Other observations

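The fall on number 2 reached interferon-stimulated genes of several kinds outside the 36. Among the GTPases, Ifi47 differed by -1.71 from the mean of the other numbers, Gbp6 by -1.71 and Gbp7 by -1.24 (adjusted p = 3.9e-05, 0.00151 and 2.8e-05). The ADP-ribosyltransferases Parp12 (-1.69) and Parp9 (-0.93) and the Parp9 partner Dtx3l (-1.18) passed as well. So did the synthetases Oas2 (-1.42) and Oas1b (-1.22), the membrane protein Ifitm3 (-0.92), the galectin Lgals9 (-1.16) and the nuclear body protein Pml (-0.87). These genes were named after their values were seen.

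Pigment genes did not share this direction. On number 2 the melanosome protein gene Mlana (0.31, adjusted p = 0.000356), the tyrosinase gene Tyr (0.44, adjusted p = 0.00846), Dct (0.20) and Gpnmb (0.20) were higher, and the transporter gene Slc45a2 was lower (-0.42, adjusted p = 0.00198). Pmel, Tyrp1, Mitf and Sox10 did not pass. Of all tested genes, 15.1% were higher and 13.7% lower on number 2.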
